A study of Mus musculus with 4 samples.

Results

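Kitl and Kit, the 2 genes described here out of 32285 counted, encode Kit ligand and its receptor. They were chosen by name and followed in single-cell RNA sequencing (scRNA-seq) of the mouse ovary, in UMIs (unique molecular identifiers, a count of captured RNA molecules) in every cell class of 4 libraries. All ovaries came from 8-week-old female littermates. The 2 Fosl2F/F libraries came from mice whose Fosl2 alleles carry loxP sites (flox/flox) without Cre. The 2 Fosl2cKO libraries came from mice with the same floxed alleles and Cyp19a1-Cre, a Cre under the promoter of the aromatase gene, which is active in granulosa cells (GCs) of the follicle, so that the deletion is directed at GCs. The stated group size equals the number of libraries, the labels do not name the animals, and p values measure the spread between these libraries.

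Kit ligand is a growth factor made as a membrane-anchored protein. Granulosa cells present it to the oocyte and to the theca layer around the follicle. Kit is the receptor tyrosine kinase that it activates, known in the ovary from oocytes and theca cells and outside it from mast cells and blood progenitors. In oocytes the receptor acts through PI3K and Akt on the transcription factor Foxo3, a brake on the growth of primordial follicles.

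Kitl (ENSMUSG00000019966) is encoded on the plus strand of chromosome 10 (GRCm38), between positions 100015630 and 100100416. Its coding transcript Kitl-202 has 10 exons and Kitl-201 has 9, and the exon that Kitl-201 lacks encodes the stretch with the main protease site, through which the ligand is shed from the membrane. This exon is shown because it separates the soluble from the membrane-bound form, and the libraries, primed at the 3′ end, give 1 count for both forms. It is exon 6 of Kitl-202, with 84 bases or 28 codons, at chr10:100080857-100080940 (GRCm38, plus strand).

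Kitl exon 6: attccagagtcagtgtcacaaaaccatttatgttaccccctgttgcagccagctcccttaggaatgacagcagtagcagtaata

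Kit (ENSMUSG00000005672) is encoded on the plus strand of chromosome 5, between positions 75574916 and 75656722, and has 21 exons in each of its coding transcripts Kit-201 and Kit-204. The promoters are shown because the deleted gene encodes an AP-1 transcription factor. The windows of 300 bases around the RefSeq start sites (GRCm38.p6) lie at chr10:100015571-100015870 for Kitl and chr5:75574737-75575036 for Kit, both on the plus strand. Capitals mark GC boxes (GGGCGG or its reverse CCGCCC).

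Kitl promoter: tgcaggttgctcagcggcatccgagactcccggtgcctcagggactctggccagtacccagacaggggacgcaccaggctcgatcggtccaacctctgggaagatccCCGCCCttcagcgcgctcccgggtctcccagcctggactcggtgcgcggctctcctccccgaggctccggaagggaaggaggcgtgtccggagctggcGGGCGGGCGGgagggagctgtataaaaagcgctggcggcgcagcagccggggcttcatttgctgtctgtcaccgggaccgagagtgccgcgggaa

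Kit promoter: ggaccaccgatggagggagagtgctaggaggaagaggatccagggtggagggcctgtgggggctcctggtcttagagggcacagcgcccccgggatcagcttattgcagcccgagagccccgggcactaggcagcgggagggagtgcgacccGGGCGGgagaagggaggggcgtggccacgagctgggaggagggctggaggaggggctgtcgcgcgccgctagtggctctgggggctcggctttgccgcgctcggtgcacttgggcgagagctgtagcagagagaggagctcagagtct

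Both windows were rich in G and C, at 68.7% for Kitl and 69% for Kit, against a median of 52.7% over 32851 promoters. The Kitl window held 3 GC boxes, of which 2 overlap and form the longer run of capitals, and the Kit window held 1, a motif present in 35.7% of all promoters. The AP-1 motif TGANTCA, searched on both strands, was in neither window and in 7.81% of all promoters. These counts describe letters in a short window only.

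The libraries held 120327227 to 148836173 UMIs in 8654 to 28155 barcodes. After filtering, 41538 cells remained, with 84722 Kitl UMIs and 4348 Kit UMIs, and Fosl2F/F replicate 2 stood apart with 19575 shallower cells (median 3654 UMIs against 11187 to 12479 in the other 3). Pairs of libraries shared 15 to 81 barcodes, at most 0.763% of a library. Cells fell into 25 clusters and 16 classes. A class carries the suffix "-like" because it was named here from marker genes, and unnamed clusters are called by number and leading genes. Neither Kitl nor Kit entered the clustering. The targeted gene itself did not separate the groups. Levels are given as CPM, the UMIs of a gene divided by all UMIs of the class in that library, times 1e6. The Fosl2 level of GC-like cells was 161 and 167 CPM under the label Fosl2F/F, against 167 and 115 CPM under Fosl2cKO, where UMIs from undeleted parts of the gene also count. The log2 fold change of Fosl2 was -0.25 (standard error, SE, 0.20, adjusted p = 0.9997, edgeR). One gene was called in GC-like cells, Plb1, named here after its values were seen. It had 0.098 and 0.052 CPM in Fosl2F/F replicates 1 and 2, against 476 and 243 CPM in Fosl2cKO replicates 1 and 2, so that this gene did separate the groups as labelled.

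Kitl was most abundant in endothelial-like cells, GC-like cells and theca-like cells. In endothelial-like cells Kitl had 581 and 851 CPM in Fosl2F/F replicates 1 and 2, against 694 and 835 CPM in Fosl2cKO replicates 1 and 2, a mean of 740.3 ± 128 CPM (SD, n = 4 libraries). All 4 values lay above every value of the GC-like class as a whole, so the ranges of these neighbouring classes did not overlap. The endothelial-like range did overlap those of GC cluster 7 (404 to 1380 CPM) and cumulus-like GCs (385 to 720 CPM), states described below. The class held 1122 cells with all 6 endothelial markers detected in each library. GC-like cells followed with a mean of 260 ± 97.8 CPM (SD, n = 4), from 167 CPM in Fosl2cKO replicate 2 to 356 CPM in Fosl2F/F replicate 2. Theca-like cells had 200.1 ± 53.1 CPM (SD, n = 4) and lay below GC-like cells in 3 of 4 libraries. Below the endothelial-like class, each class overlapped the next one in rank, so the ranges did not resolve the order of neighbours. Classes further apart could be separate. Every GC-like value, for example, lay above every luteal-like value (39.0 to 107 CPM).

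Kitl was also counted in supporting and steroidogenic cells. Epithelial-like cells had 187 ± 105 CPM, stromal-like cells 148 ± 72.4 CPM, and pericyte or smooth muscle-like cells 125 ± 28.1 CPM (SD, n = 4 libraries each). Cluster 2, led by Abcb1b and Hao2 and unnamed because it scored about alike for the luteal list, the higher score, and the theca list, had 145 ± 44.0 CPM. Cluster 1, led by Asb4 and Enpep, had 73.6 ± 27.4 CPM, and luteal-like cells had 73.4 ± 28.6 CPM. Cluster 16, led by Hmmr and Enpep, had 70.3 ± 17.2 CPM. Each of these ranges overlapped the next in rank. Cluster 23, led by Cemip and Runx2, rested on 28 Kitl UMIs and ran from 0 to 408 CPM.

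Kitl was lowest in immune and lymphatic cells. Macrophage-like cells, which are not known as a source of Kit ligand and serve here as the background class, had 47.2 ± 18.9 CPM (SD, n = 4). Lymphatic endothelial-like cells had 32.2 ± 8.92 CPM, well below the blood endothelial-like class. The NK or T-like class had 18.5 ± 15.0 CPM from 43 UMIs and the B lymphocyte-like class, whose leading genes also held S100a8 and S100a9 of neutrophils, 13.1 ± 9.85 CPM from 7 UMIs. Oocyte-like cells had 98.1 ± 82.7 CPM from 72 UMIs, with 3, 29, 2 and 38 UMIs in Fosl2F/F replicates 1 and 2 and Fosl2cKO replicates 1 and 2. A single barcode held 37 of the 38 UMIs of Fosl2cKO replicate 2, the library with the highest value (214 CPM). The GC marker list summed to 503 to 1127 CPM in these oocyte-like cells, with 5 to 8 of 8 markers detected, against 7589 to 12253 CPM in GC-like cells. Its part in the Kitl of oocyte-like cells was not tested.

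Kit had another order, led by the oocyte. Oocyte-like cells had 300.3 and 243 CPM in Fosl2F/F replicates 1 and 2, against 206 and 225 CPM in Fosl2cKO replicates 1 and 2, a mean of 244 ± 40.8 CPM (SD, n = 4). The values lay far above those of every other class in all 4 libraries. They rested on 147 Kit UMIs in 122 barcodes, with a median depth of 1556 to 4844.5 UMIs per barcode in a library. The UMIs were uneven among barcodes, except in Fosl2cKO replicate 1, where no barcode held more than 2 of 9 Kit UMIs. One barcode held 16 of 28 Kit UMIs in Fosl2F/F replicate 1, 26 of 70 in Fosl2F/F replicate 2 and 31 of 40 in Fosl2cKO replicate 2. All 10 oocyte markers were detected in each library, at a sum of 8948 to 11430.4 CPM.

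Endothelial-like cells came next, followed by theca-like cells. Kit in endothelial-like cells had 62.7 and 56.2 CPM in Fosl2F/F replicates 1 and 2, against 72.6 and 78.2 CPM in Fosl2cKO replicates 1 and 2, a mean of 67.4 ± 9.86 CPM (SD, n = 4), from 659 UMIs. No mast cell marker was detected in this class in any library. In theca-like cells Kit had 48.6 and 51.5 CPM in Fosl2F/F replicates 1 and 2, against 42.0 and 53.2 CPM in Fosl2cKO replicates 1 and 2, a mean of 48.8 ± 4.96 CPM (SD, n = 4), from 1112 UMIs. All 4 endothelial-like values exceeded all 4 theca-like values.

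Among the steroidogenic clusters, Kit set theca-like cells and cluster 2 apart from the rest. Cluster 2 had 24.6 ± 7.09 CPM from 949 UMIs, and in each library it lay below the theca-like class, with log2 differences of -0.65 to -1.29. Stromal-like cells had 3.09 ± 2.16 CPM, with log2 differences from theca-like cells of -3.02 to -4.82. Cluster 1 and cluster 16 had 2.55 ± 1.59 and 2.91 ± 2.30 CPM, and luteal-like cells had 6.72 ± 5.72 CPM (SD, n = 4 libraries each). The theca marker list summed to 5763 to 8963 CPM in cluster 2 and to 5565 to 8313 CPM in luteal-like cells, overlapping ranges, whereas every Kit value in cluster 2 (17.9 to 33.7 CPM) lay above every value in luteal-like cells (2.06 to 15.0 CPM). Cyp11a1 is in both the theca and the luteal list, so this sum does not measure theca identity alone. Mast cell markers summed to at most 0.375 CPM in theca-like cells, cluster 2, stromal-like and luteal-like cells.

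Kit was unevenly counted in the NK or T-like class, which followed the theca-like class by its mean of 37.9 ± 24.3 CPM (SD, n = 4), from 90 UMIs. It had 27.3 and 70.7 CPM in Fosl2F/F replicates 1 and 2, against 13.8 and 39.8 CPM in Fosl2cKO replicates 1 and 2. The value of Fosl2F/F replicate 2 lay above those of endothelial-like and theca-like cells in the same library (56.2 and 51.5 CPM), and the range of the class overlapped those of the theca-like class and cluster 2. Innate lymphoid markers summed to 1139 to 1484 CPM in this class with all 5 detected, while mast cell markers summed to 26.2 to 46.0 CPM with 1 or 2 of 6 detected and Mcpt4, Tpsb2, Fcer1a and Ms4a2 at 0 in every library. Macrophage-like cells had 15.4 ± 1.89 CPM from 171 UMIs, in a cluster that also carried dendritic cell markers. Epithelial-like cells had 11.99 ± 2.65 CPM (SD, n = 4). GC-like cells had 3.43 ± 1.14 CPM, and pericyte or smooth muscle-like cells were last with 1.43 ± 0.37 CPM. B lymphocyte-like cells, lymphatic endothelial-like cells and cluster 23 held 3, 11 and 1 Kit UMIs. In the libraries where Kit was at 0, a floor of 3 UMIs allows up to 16.7 CPM in the first, 17.4 CPM in the second and 76.4 CPM in the last, for counting error only.

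**Figure D1:**
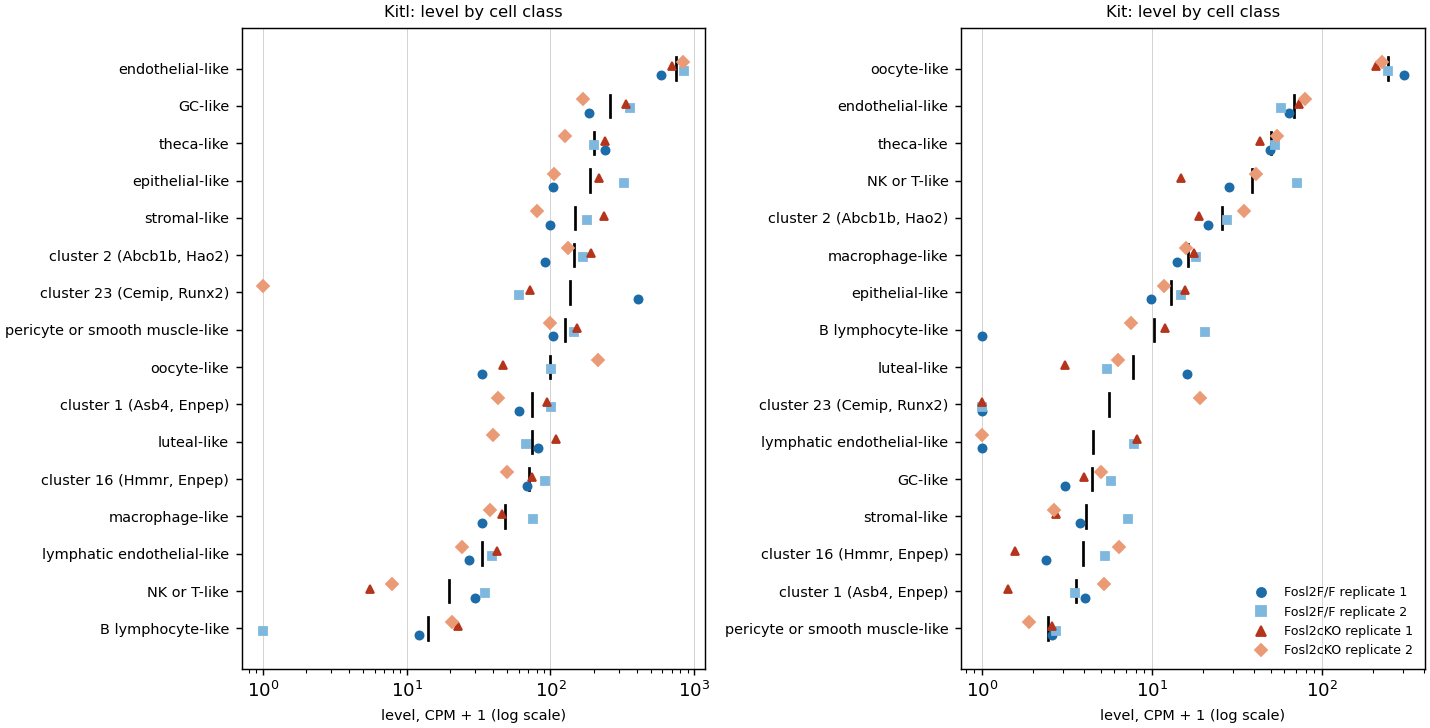
Levels of Kitl (left) and Kit (right) as CPM + 1 on a log axis in 16 cell classes, ordered by the mean of the 4 libraries (black bars), with 1 point per library. Kitl is spread over endothelial, granulosa, theca and stromal classes, whereas Kit falls steeply from oocyte-like cells (mean 244 CPM) over endothelial-like (67.4 CPM) and theca-like cells (48.8 CPM) to GC-like cells (3.43 CPM).

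Within the granulosa layer, Kitl followed the state of the cell. Cumulus-like GCs were named from 5 marker genes taken for the cells that surround the oocyte. The position of cells in the follicle was not measured. Cumulus-like GCs had 385 and 720.1 CPM in Fosl2F/F replicates 1 and 2, against 644 and 568 CPM in Fosl2cKO replicates 1 and 2, a mean of 579 ± 144 CPM (SD, n = 4). Mural-like GCs were named from markers taken for the cells that line the follicle wall, among them Lhcgr. Mural-like GCs had 315 and 358 CPM in Fosl2F/F replicates 1 and 2, against 485 and 153 CPM in Fosl2cKO replicates 1 and 2, a mean of 328 ± 137 CPM (SD, n = 4). The ranges of the 2 states overlapped across libraries, but the cumulus-like value was higher within each library, by 0.33, 0.97, 0.39 and 1.91 on the log2 scale.

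Mitotic-like, atretic-like and mitotic-antral-like GCs and GC clusters 5 and 8 each had less Kitl than the mural-like state in all 4 libraries. Mitotic-like GCs had 162 ± 50.1 CPM, atretic-like GCs 147 ± 89.9 CPM and mitotic-antral-like GCs 105 ± 34.5 CPM (SD, n = 4 each). GC cluster 5, led by Amh and Cited1, genes of growing follicles, had 135 ± 59.6 CPM. Within a library the log2 difference from mural-like GCs was -1.28 to -1.74 in mitotic-antral-like GCs and -0.78 to -1.94 in GC cluster 5. GC cluster 7, led by Rrad and Dgkb, had the highest Kitl of all states with 909 ± 402 CPM, above the cumulus-like state in each library. It held 495 shallow cells (median 2258 to 5756 UMIs per library) and stayed unnamed. The share of its cells with a Kitl UMI gave no such order. At 2000 UMIs a cell it was 34.0% and 68.4% in Fosl2F/F replicates 1 and 2, against 44.3% and 61.9% in cumulus-like GCs of the same libraries, and 39.8% and 54.4% in Fosl2cKO replicates 1 and 2, against 64.2% and 53.1%. Without thinning it was 37.5% to 70.0%, against 76.3% to 96.6% in the deeper cumulus-like cells. One cell held 264 of the 1136 Kitl UMIs of GC cluster 7 in Fosl2cKO replicate 1. GC cluster 8, led by Spef2 and Gm35188, had 167 ± 72.2 CPM from 195 UMIs.

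Kit was low in every GC state. GC cluster 7 held 1 Kit UMI in all, under a floor of 3 UMIs that allows 2.59 to 6.13 CPM in a library, and GC cluster 8 held 2. The highest mean was 6.96 ± 3.36 CPM in mitotic-antral-like GCs (SD, n = 4), where Fosl2cKO replicate 2 was highest at 11.6 CPM. The mitotic-antral-like value was above that of mitotic-like GCs in each library, with overlapping ranges. In GC-like cells as a whole the level was highest in Fosl2F/F replicate 2 (4.70 CPM) and lowest in Fosl2F/F replicate 1 (2.09 CPM). The 10 oocyte markers summed to 12.1 and 71.5 CPM in GC-like cells of the Fosl2F/F libraries and to 3.94 and 12.6 CPM in those of the Fosl2cKO libraries, and their part in the Kit of GCs was not tested.

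**Figure D2:**
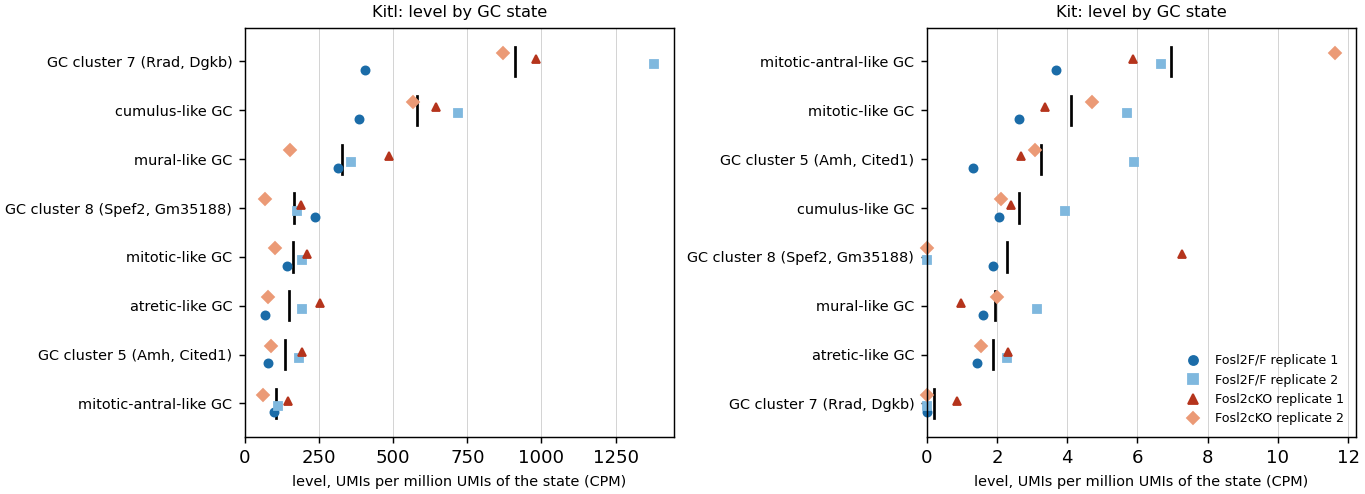
Levels of Kitl (left) and Kit (right) in CPM on linear axes in 8 GC states, ordered by the mean of the 4 libraries (black bars), with 1 point per library. GC cluster 7 and cumulus-like GCs hold the most Kitl (means 909 and 579 CPM) and mitotic-antral-like GCs the least (105 CPM), and Kit stays under 12 CPM in every state and library.

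Cells with a UMI of either gene were also counted. Cells were compared at an equal depth, as the share expected to show a UMI when each cell is thinned to 2000 UMIs, with shallower cells left out. Kitl was then detected in 68.1% ± 4.53 of endothelial-like cells, 55.9% ± 9.08 of cumulus-like GCs and 39.6% ± 12.3 of mural-like GCs (SD, n = 4 libraries). In macrophage-like cells, the background class, it was detected in 6.38% ± 2.43. The share in NK or T-like cells was 2.22% ± 1.09, below that background. Theca-like cells, cluster 2 and stromal-like cells lay at 24.7% ± 4.47, 19.3% ± 4.81 and 18.8% ± 6.35, above the background in each library. Without thinning, 60.9% to 88.1% of GC-like cells and 11.5% to 20.97% of macrophage-like cells had a Kitl UMI, at median depths of 4583 to 19192 and 2360 to 8862 UMIs.

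Kit was detected in few cells outside the oocyte. Thinned to 2000 UMIs, 33.5% ± 9.22 of oocyte-like cells had a Kit UMI (SD, n = 4 libraries), on 5 to 20 barcodes per library that were deep enough. The shares in endothelial-like cells, theca-like cells and cluster 2 were 10.9% ± 1.94, 7.80% ± 0.78 and 4.92% ± 1.51, against 2.78% ± 0.77 in macrophage-like cells. GC-like cells, at 0.60% ± 0.18, and stromal-like cells, at 0.61% ± 0.47, lay below the macrophage-like share. Macrophage-like cells had been set as the background class for Kit as well as for Kitl. They were not free of Kit, at the share given above. The NK or T-like share was 18.0% in Fosl2F/F replicate 2, where 212 of 249 cells were too shallow to enter, and 2.06% to 5.74% in the other 3 libraries. Unthinned, 18.8% to 39.9% of theca-like cells and 3.92% to 8.44% of macrophage-like cells had a Kit UMI.

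An exact two-sided permutation test of 4 libraries cannot go below p = 0.333. For Kitl it gave p = 1 in GC-like cells, 0.667 in cumulus-like GCs and 1 in mural-like GCs (exact permutation tests). For Kit it gave p = 0.333 in oocyte-like cells, where the 2 Fosl2cKO shares (28.5% and 25.4%) lay below the 2 Fosl2F/F shares (46.3% and 33.8%), and p = 1 in theca-like and in endothelial-like cells (exact permutation tests). The oocyte-like groups overlapped at 1000 UMIs, where every barcode entered (21.6% and 11.7% against 17.0% and 12.9%), and without thinning (40% and 28.6% against 30% and 50%).

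**Figure D3:**
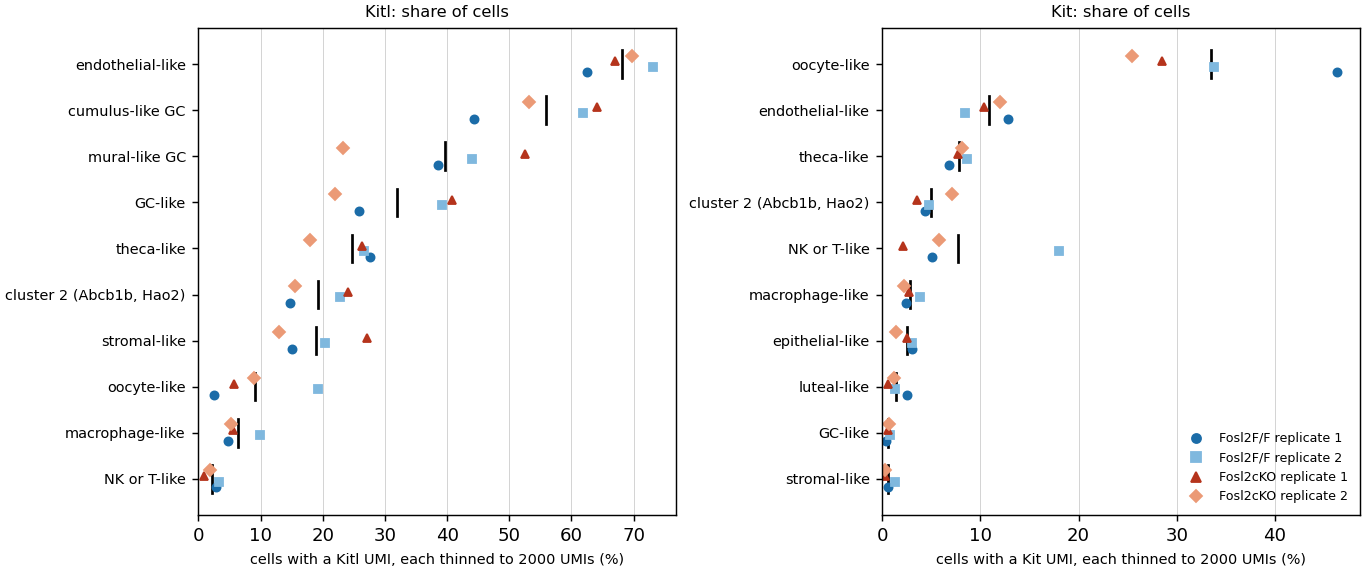
Share of cells with a Kitl UMI (left) and a Kit UMI (right), in percent of the cells with at least 2000 UMIs, each thinned to 2000, for 10 classes or states, with 1 point per library and the mean as a black bar. The Kitl share falls from 68.1% in endothelial-like cells to 6.38% in macrophage-like and 2.22% in NK or T-like cells. Among the classes drawn for Kit, the share falls from 33.5% in oocyte-like cells to 0.60% in GC-like cells.

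Counted by origin, Kitl RNA came mostly from GC-like cells. Their part of the Kitl UMIs was 75.5% and 54.3% under the label Fosl2F/F, and 60.2% and 56.1% under Fosl2cKO, against 36.9% to 66.4% of all UMIs. The share of Kitl UMIs thus exceeded the share of all UMIs in each library. Endothelial-like cells gave 3.45% to 14.2% of the Kitl UMIs from 0.960% to 3.81% of all UMIs. Cumulus-like GCs gave 21.3% ± 6.53 and mural-like GCs 13.9% ± 12.2 of the Kitl UMIs (SD, n = 4 libraries). The mural-like mean was 8.04% without Fosl2F/F replicate 1.

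On average over the libraries, theca-like cells (25.8% ± 10.3, SD, n = 4) and cluster 2 (21.6% ± 7.51) held the largest parts of the Kit UMIs. Theca-like cells held 36.4% and 21.8% under the label Fosl2F/F, and 13.4% and 31.7% under Fosl2cKO. Cluster 2 held 13.1% and 21.4%, and 31.4% and 20.6%. The groups overlapped for both, and these shares also move with the number of cells of a class in a library. GC-like cells held 13.8% to 19.2% of the Kit UMIs at their low level, against the 36.9% to 66.4% of all UMIs given above. Oocyte-like cells held 0.950% to 5.35%. For theca-like cells and for cluster 2 the comparison of the labels gave p = 0.667 (exact two-sided permutation tests).

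**Figure D4:**
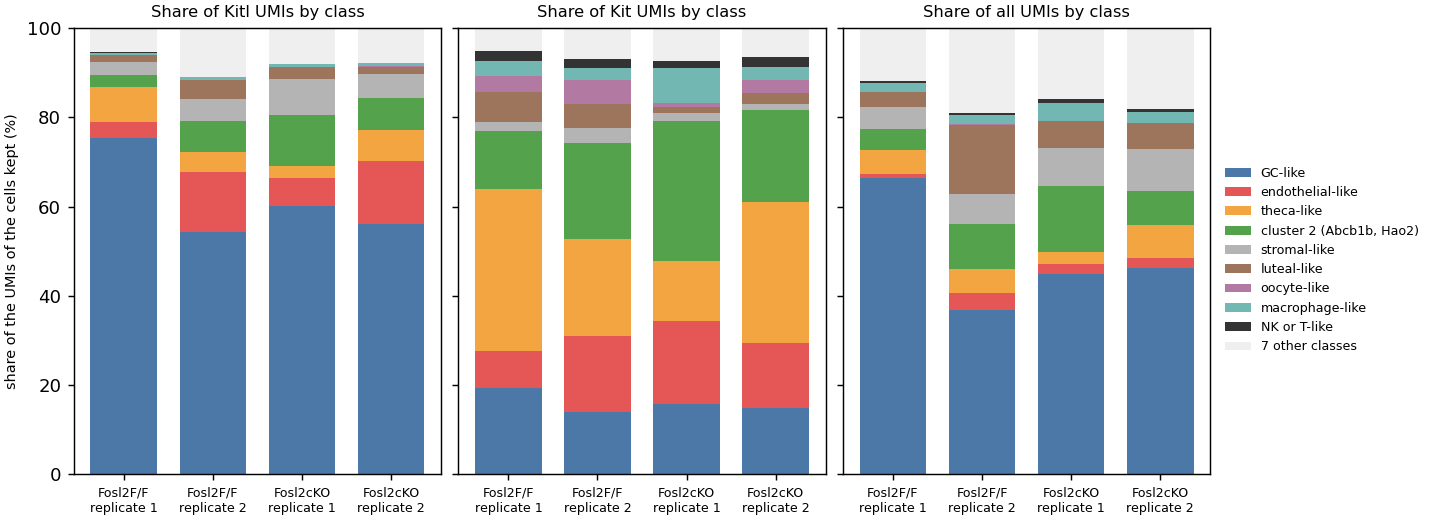
Share of all Kitl UMIs (left), all Kit UMIs (middle) and all UMIs of any gene (right) by cell class, in percent of the cells kept, with 1 stacked bar per library. GC-like cells hold 54.3% to 75.5% of Kitl UMIs and 13.8% to 19.2% of Kit UMIs, and theca-like cells and cluster 2 hold on average 25.8% and 21.6% of the Kit UMIs.

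Ligand and receptor were seen in the same barcode in 1612 of 41538 cells. At 2000 UMIs per cell, 5.84% to 8.43% of endothelial-like cells had both, where the product of the 2 single shares was 6.14% to 8.34%. In theca-like cells the values were 1.24% to 2.37% and 1.46% to 2.30%. The ranges of the observed share and of the product overlapped in both classes. Of the oocyte-like barcodes, 11 held both.

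The comparison of the labels asked whether Kitl in GCs, where the Cre is active, or Kit in the cells that receive the ligand, differed between Fosl2cKO and Fosl2F/F. In GC-like cells Kitl had 184 and 356 CPM in Fosl2F/F replicates 1 and 2, against 332 and 167 CPM in Fosl2cKO replicates 1 and 2. Each group held a high and a low library, and the groups overlapped. The log2 fold change was -0.14 (SE 0.38, adjusted p = 0.9997, edgeR, Benjamini-Hochberg over 17283 genes). Genes were called where the adjusted p was below 0.1 and the size of the log2 fold change above 0.25, which held for 0.00579% of the genes tested in GC-like cells, the 1 gene named above. Leaving out Fosl2F/F replicate 2 or Fosl2cKO replicate 2 turned the sign of the Kitl change, to 0.36 and 0.26.

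In the GC states no change of Kitl passed the threshold with the main settings. In GC cluster 7 the log2 fold change was 0.05 (adjusted p = 0.9999, edgeR), and with more doublets removed it was 1.63 and called (adjusted p = 0.0547, edgeR). In GC cluster 8 it was -0.89 (adjusted p = 0.552, edgeR), and without Fosl2cKO replicate 1 it was -1.70, with 1 library left under that label and its spread not measured. Kitl had a log2 fold change of 0.09 in cumulus-like GCs (SE 0.28) and of -0.14 in mural-like GCs (SE 0.46), with adjusted p = 0.9998 and 0.9990 (edgeR). With the main settings the share of genes called was 0.00761% in cumulus-like, 0.0159% in mural-like, 0.00689% in mitotic-like, 0.00769% in atretic-like and 0.00807% in mitotic-antral-like GCs, and 0.00789%, 0.0696% and 0.0229% in GC clusters 5, 7 and 8. These shares do not describe the alternative fits named above. A test of whether the change of Kitl differed from that in mural-like GCs passed in 0 of the other 7 states (limma on within-library differences, smallest unadjusted p = 0.222).

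Kit in theca-like cells, with the 4 levels given above, differed by a log2 fold change of -0.15 (SE 0.27, adjusted p = 0.9997, edgeR), where 0.0391% of genes were called. The groups overlapped, and without Fosl2cKO replicate 1 the change was 0.02. In oocyte-like cells the log2 fold change of Kit was -0.31 (SE 0.46, adjusted p = 0.9999, edgeR). Both Fosl2cKO libraries lay below both Fosl2F/F libraries there, and 28% of the 3733 genes tested had groups that did not overlap in one direction or the other. Called genes made up 0% of them by edgeR, 134 genes had an unadjusted p under 0.05, and DESeq2 called 0. In oocyte-like cells with under 5% mitochondrial UMIs the Kit change had the other sign (0.18).

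Kit in endothelial-like cells was higher in both Fosl2cKO libraries than in both Fosl2F/F libraries. The log2 fold change was 0.35 (SE 0.25, adjusted p = 0.99997, edgeR), with 0.177% of genes called and 28.3% of genes whose groups did not overlap. Kitl in the same cells had a log2 fold change of 0.09 (SE 0.25, adjusted p = 0.99997, edgeR). In stromal-like cells Kit had 2.76 and 6.24 CPM in Fosl2F/F replicates 1 and 2, against 1.71 and 1.64 CPM in Fosl2cKO replicates 1 and 2, from 15 to 44 UMIs a library. The groups did not overlap, as for 28.6% of genes in this class, and the log2 fold change of -1.43 (SE 0.54, unadjusted p = 0.0180) had an adjusted p of 0.805 (edgeR), with 0.191% of genes called. The 10 oocyte markers summed to 24.4 and 155 CPM in stromal-like cells of the Fosl2F/F libraries and to 9.73 and 26.4 CPM in those of the Fosl2cKO libraries, while the 6 theca markers summed to 323 and 551 CPM against 194 and 297 CPM, with Insl3 at 0 in all but Fosl2F/F replicate 2. The part of either list in this difference was not tested.

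Kit in luteal-like cells had 15.0 and 4.45 CPM in Fosl2F/F replicates 1 and 2, against 2.06 and 5.34 CPM in Fosl2cKO replicates 1 and 2. Fosl2F/F replicate 1 stood high and the groups overlapped. The log2 fold change was -1.49 (SE 0.77, adjusted p = 0.518, edgeR), with 0.0157% of genes called. The 6 luteal markers summed to 17887 and 12578 CPM in luteal-like cells under the label Fosl2F/F and to 6532 and 8043 CPM under Fosl2cKO. Their part in the Kit difference was not tested. In cluster 2 the log2 fold change of Kit was 0.09 (SE 0.30, adjusted p = 0.99998, edgeR), with 0.191% called. Kitl had log2 fold changes of -0.35 in theca-like cells (SE 0.34) and 0.21 in stromal-like cells (SE 0.43), with adjusted p = 0.9997 and 0.9996 (edgeR).

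One difference passed the threshold, Kitl in NK or T-like cells, at a level under the background class. Kitl had 28.7 and 34.0 CPM in Fosl2F/F replicates 1 and 2, against 4.60 and 6.86 CPM in Fosl2cKO replicates 1 and 2, from 20, 13, 5 and 5 UMIs. The Fosl2cKO libraries lay below both Fosl2F/F libraries, with a log2 fold change of -2.51 (SE 0.54, adjusted p = 0.0490, edgeR). Only the Fosl2F/F libraries met the count minimum of the filter for Kitl, so that it entered the test through the group where it was high. In this class 0.738% of 7858 genes were called, 0.344% were called lower, and 42.5% had groups that did not overlap. A single cell of Fosl2F/F replicate 1, with 24936 UMIs, held 9 of its 20 Kitl UMIs. Without that cell, a step chosen after the data had been seen, the log2 fold change was -2.13 and the adjusted p 0.196 (edgeR). DESeq2 gave an adjusted p of 0.543. Without Fosl2F/F replicate 1 or Fosl2cKO replicate 1 the log2 fold change was -2.61 and -2.20 and the adjusted p 0.365 and 0.159 (edgeR), in fits that leave 1 library under a label.

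The GC marker list was also lower in both Fosl2cKO libraries in these cells. All 8 were detected in each library, and they summed to 974.7 and 495 CPM in NK or T-like cells of the Fosl2F/F libraries and to 385 and 269 CPM in those of the Fosl2cKO libraries. Within each label, the library with the higher sum had the lower Kitl level. The counting intervals of these Kitl levels overlapped within each label, on the few UMIs given above. The order therefore lay within counting error and does not bear on the source of the Kitl UMIs. In macrophage-like cells the markers summed to 498 and 384 CPM against 160.3 and 195 CPM. Kitl had 32.5 and 74.5 CPM against 45.2 and 36.8 CPM there. Of the 27 genes called lower in NK or T-like cells, Inha is in the GC list. Akr1c18, Sfrp4 and Cyp11a1 are in the luteal list, and these genes are named here after their values were seen. The rest of both lists was not called in this class, and 31 genes were called higher. The part of the GC and luteal markers in the Kitl difference of NK or T-like cells was not tested. The change of Kitl in NK or T-like cells differed from that in macrophage-like cells by -1.76 and from that in GC-like cells by -1.92 on the log2 scale, with adjusted p = 0.873 and 0.776 (limma), comparisons added after the data had been seen. Kit in the same cells had a log2 fold change of -0.90 (SE 0.49, adjusted p = 0.498, edgeR) and overlapping groups. Without Fosl2cKO replicate 2 it was -1.77, with 1 library (15 Kit UMIs) under the label Fosl2cKO and its spread assumed to be that of the Fosl2F/F pair.

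In the other 25 pairs of gene and class tested the log2 fold changes ran from -0.89 to 1.04 and the smallest adjusted p was 0.552 (edgeR). The share of genes called was 0.32% in macrophage-like, 0.371% in lymphatic endothelial-like, 0.115% in epithelial-like and 0.0813% in pericyte or smooth muscle-like cells, and 0.0662% and 0.0875% in clusters 1 and 16. Over all 24 classes and GC states, Kitl passed the filter on low counts in 22 and Kit in 18, so that Kit was not tested in 6, among them pericyte or smooth muscle-like cells with 20 UMIs. In all, Kitl was called in 1 class and Kit in 0.

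**Figure D5:**
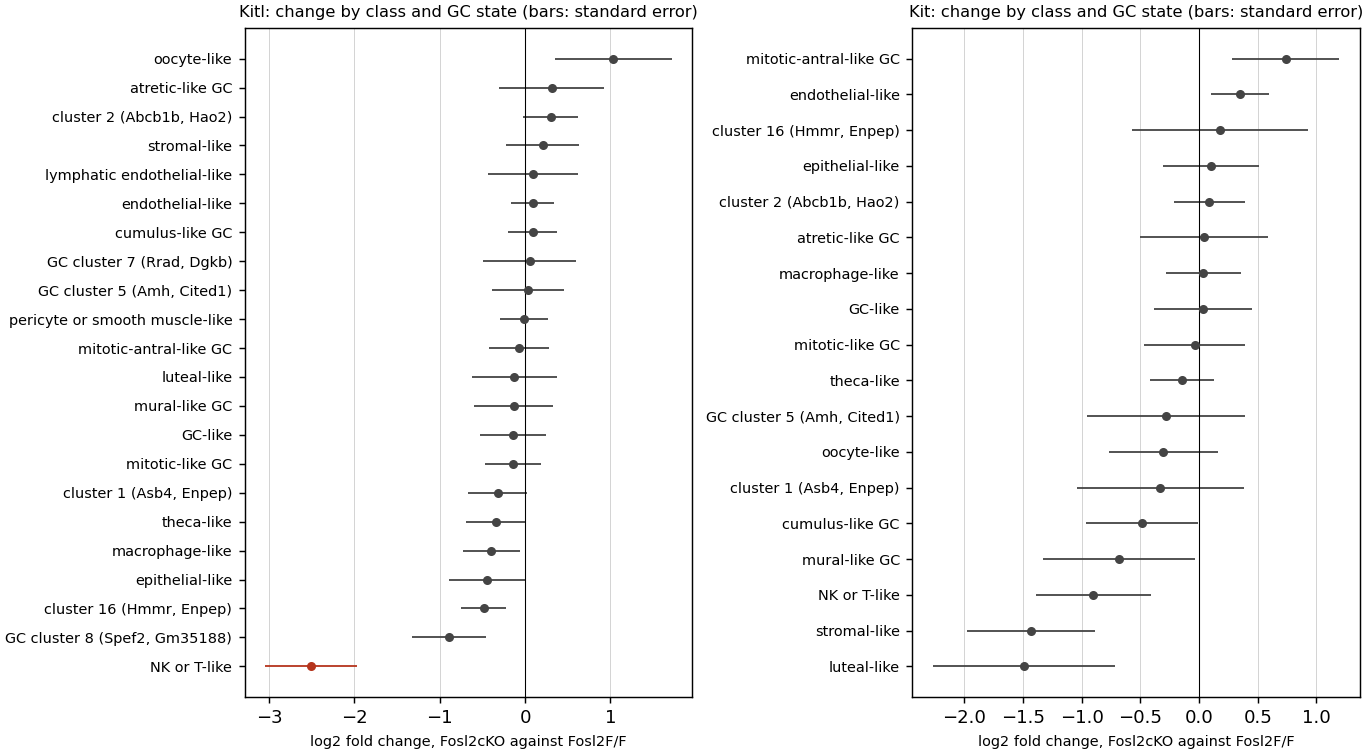
Log2 fold change of Kitl (left) and Kit (right), Fosl2cKO against Fosl2F/F, with standard errors derived from the edgeR F statistic as bars, in every class or GC state where the gene passed the filter. The NK or T-like value for Kitl (-2.51, red) is the one that passed the threshold, and the changes in GC-like (-0.14), theca-like (-0.15 for Kit) and oocyte-like cells (-0.31 for Kit) lie within 1 standard error of 0.

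The genes through which Kit signals were taken as a list of 66 by role. In GC-like cells 65 of them were tested and 0 called, with a median log2 fold change of 0.07 against -0.02 over all genes. In theca-like cells 59 were tested and 0 called, with a median of 0.07 against -0.0018. In oocyte-like cells 29 were tested and 0 called, with a median of 0.01 in the list and over all genes alike. In these classes 6 of 65, 4 of 59 and 1 of 29 tested members of the list had an unadjusted p below 0.05 by edgeR. Over all genes tested it was 822 of 17283 (4.76%), 507 of 12772 (3.97%) and 134 of 3733 (3.59%).

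Among adaptors and attenuators of the receptor, Socs1, a suppressor of cytokine signalling that binds Kit, had the lowest p in 2 of these classes. In GC-like cells Socs1 had 3.75 and 4.18 CPM in Fosl2F/F replicates 1 and 2, against 10.6 and 12.7 CPM in Fosl2cKO replicates 1 and 2. In theca-like cells it had 9.07 and 15.0 CPM against 88.9 and 37.1 CPM. Both Fosl2cKO libraries were higher in both classes, with log2 fold changes of 1.53 (SE 0.24, adjusted p = 0.322) and 2.29 (SE 0.42, adjusted p = 0.132), neither past the threshold (edgeR). The groups of 31.6% of genes in GC-like and 30.2% in theca-like cells did not overlap. Socs1 was called, and higher, in stromal-like cells (2.25, adjusted p = 0.0823), cluster 2 (2.05, adjusted p = 0.0256), cluster 16 (2.23, adjusted p = 0.0351) and NK or T-like cells (2.18, adjusted p = 0.0128). The share of all genes called in these classes was 0.191%, 0.191%, 0.0875% and 0.738%. No gene was called higher in stromal-like cells under the replicate block or without either Fosl2F/F replicate, in cluster 16 without either Fosl2F/F replicate, or in NK or T-like cells over 2000 UMIs, so that Socs1 lost its call there, in part in fits with 1 library under a label. It was the one gene of the list called in any class, and Kit itself was called in none of these classes.

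In the MAPK branch, Map2k2, the kinase Mek2, had 79.8 and 108 CPM against 148 and 138 CPM in GC-like cells, a log2 fold change of 0.58 (SE 0.18, adjusted p = 0.960, edgeR).

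Of the oocyte factors that act back on granulosa cells, Gdf9 had 3.21 and 15.6 CPM in GC-like cells of the Fosl2F/F libraries, against 1.30 and 2.61 CPM in those of the Fosl2cKO libraries, a log2 fold change of -2.25 (SE 0.73, adjusted p = 0.982, edgeR). It was likewise -1.97 in theca-like cells (adjusted p = 0.886, edgeR). The fall was not particular to these classes. The tested genes of this role, 1 or 2 in a class, had a median log2 fold change of -2.14 in stromal-like cells and -2.43 in cluster 2. It was -2.27 in macrophage-like cells, -2.11 in pericyte or smooth muscle-like cells, -0.50 in epithelial-like cells and -0.60 in oocyte-like cells. Gdf9 is an oocyte transcript, and the oocyte marker sum given above was highest in the same library, Fosl2F/F replicate 2. Gdf9 is itself among the 10 markers of that sum and gave 602 of its 2754 UMIs in GC-like cells of that library. The part of the other markers in the Gdf9 difference was not tested. In oocyte-like cells the 3 lowest p values of the list belonged to Sohlh1, Adam10 and Jak2. Sohlh1, a transcription factor upstream of Kit, had 8, 1, 1 and 59 UMIs in the 4 libraries (log2 fold change 2.78, SE 1.13, unadjusted p = 0.0321, adjusted p = 0.9999, edgeR). Adam10, a membrane protease, had 107 and 153 CPM in Fosl2F/F replicates 1 and 2, against 68.6 and 61.9 CPM in Fosl2cKO replicates 1 and 2, from 3 to 44 UMIs a library. Jak2, a cytokine receptor kinase, had 107 and 208 CPM against 68.6 and 84.5 CPM, from 3 to 60 UMIs. The groups of Adam10 and Jak2 did not overlap, as for 28.0% of genes in this class, and no change of the 3 genes passed the threshold.

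Over 23 classes and states, with GC states in place of the GC-like total, the genes whose mean level ran most like Kitl were Tmem35a (Pearson r = 0.88), Epha4 (0.83), Gm35533 (0.82), Api5 (0.82) and Pdk4 (0.79), among 9101 genes with at least 50 CPM in a class. Those most like Kit were Sptlc1 (0.82), Tmem255b (0.75), Auh (0.73), Rnf114 (0.72) and Cage1 (0.72), and each of these 5 was highest in oocyte-like cells. The correlations are on log2(CPM + 1), and the classes share the same 4 libraries.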

How the data were processed

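Droplet 3′ scRNA-seq libraries (10x Genomics, v3) were made from ovaries of 2 Fosl2F/F and 2 Fosl2cKO samples. The deposited values are UMI counts per gene and barcode, aligned by the authors to GRCm38; the matrix headers name CellRanger 7.1.0, and the submitters' processing notes name Seurat 4.1.0. The study's methods name another CellRanger version and describe removal of ambient RNA with CellBender. Whether the deposited counts are its output, and whether intronic reads were counted, is not given in the sources used here. Every deposited barcode had at least 500 UMIs.

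Cells with at least 500 genes, 1000 UMIs, less than 10% of UMIs from mitochondrial and less than 0.1% from hemoglobin genes were kept, and doublets were removed with Scrublet (scanpy 1.11.5) at 0.8% per 1000 cells, which took 5.74% to 19.4% of a library. Libraries were integrated with sctransform 0.4.2 and Seurat 5.3.0 (3000 features without Kitl and Kit, 30 dimensions, resolution 0.8, and 0.5 for GCs). Clusters were named from marker lists, with naming limits set after the clusters were seen. Mast and innate lymphoid lists served only as levels. The members and lists were chosen with earlier results of these data known.

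UMIs were summed per library and class (CPM, UMIs divided by all UMIs of the class, times 1e6) and tested with edgeR 4.0.16 (filterByExpr, TMM, quasi-likelihood, Benjamini-Hochberg over all genes of a class), with calls where the adjusted p was below 0.1 and the size of the log2 fold change above 0.25. The SE given with an edgeR log2 fold change was derived here, as the size of the change divided by the square root of its F statistic. Changes were compared between classes with limma 3.58.1 and shares of cells with exact permutation tests over libraries (scipy 1.17.1). The scripts were tested on simulated data. Alternatives were DESeq2 1.42.0, another normalization, no gene filter, a replicate block, other cell filters, other clusterings, other thinning depths and each library left out. Genes outside the members were named as those of the pathway list called, or with the 3 lowest p, in GC-like, theca-like or oocyte-like cells, and the 5 most like each member. One gene that this rule named is not reported here. Intervals and floors cover counting error only.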

Additional observations from a re-analysis of the deposited data

How the results depend on the processing

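With a library left out, the mean Kitl level ran from 703 to 793 CPM in endothelial-like cells, 228 to 291 CPM in GC-like cells, 532 to 644 CPM in cumulus-like and 275 to 386 CPM in mural-like GCs, and the mean Kit level from 225 to 256 CPM in oocyte-like, 63.8 to 71.1 CPM in endothelial-like and 47.4 to 51.1 CPM in theca-like cells. The mural-like share of Kitl UMIs fell from 13.9% to 8.04% without Fosl2F/F replicate 1. Shares of cells depend on depth by construction: without thinning and at 1000 UMIs the Kitl shares were 69.7% and 20.2% in GC-like cells, 86.9% and 37.4% in cumulus-like GCs, 78.4% and 24.6% in mural-like GCs, and 83.5% and 46.0% in endothelial-like cells. The Kit shares were 31.1% and 4.13% in theca-like cells, 26.5% and 5.98% in endothelial-like cells, 20.7% and 2.70% in cluster 2, and 15.8% in oocyte-like cells at 1000 UMIs.

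A fit without a library holds 1 library under that label, whose spread is assumed to be that of the others. For several changes between labels the sign depended on which library was left out. The log2 fold change of Kitl then ran from -0.68 to 0.36 in GC-like cells, from -0.26 to 0.55 in cumulus-like GCs, from -1.18 to 0.46 in mural-like GCs, from -0.14 to 0.38 in endothelial-like cells, from -0.87 to 0.048 in theca-like cells and from -0.83 to 0.79 in stromal-like cells. That of Kit ran from -0.34 to 0.018 in theca-like cells, from -0.40 to 0.66 in GC-like cells and from -0.41 to 0.48 in cluster 2. With cells under 5% mitochondrial UMIs Kit in oocyte-like cells was 0.18. The cause was not tested. Kit kept its sign in the 14 alternatives run in endothelial-like (0.25 to 0.43), luteal-like (-2.30 to -0.40) and stromal-like cells (-1.87 to -0.74), with no call, and in the 15 run in NK or T-like cells (-1.77 to -0.17). There its only call came without Fosl2cKO replicate 2, in a fit with 1 library under that label.

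Kitl in NK or T-like cells was tested in 14 of the 15 alternatives run in this class. In the main fit it had entered the test through the group where it was high, as given above. Its log2 fold change ran from -2.77 to -2.13. The call was lost in 5 alternatives, among them cells over 2000 UMIs (adjusted p = 0.313, edgeR). Of 309 alternative fits of the other 25 pairs, 2 were called, both for Kitl: GC cluster 8 without Fosl2cKO replicate 1 (-1.70) and GC cluster 7 with more doublets removed (1.63). The first held 1 library under the label Fosl2cKO. The shares of genes called given above for these clusters came from the main settings, not from these fits.

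The number of genes called was 1 in GC-like cells, 273 without the gene filter, 165 by DESeq2 and 0 to 136 with a library left out. In theca-like cells it was 5, against 3 without the filter, 32 by DESeq2, 16 under 5% mitochondrial UMIs, 3 with more doublets removed, 13 with coarser clusters, 3 at an adjusted p under 0.05 and 0 to 121 with a library left out. In oocyte-like cells it was 0, against 28 without the filter and 0 to 94 with a library left out.

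The replicate numbers are shared by the labels without a stated pairing. Same-numbered libraries deviated with a correlation across genes of -0.16 in GC-like, -0.15 in theca-like and 0.01 in oocyte-like cells. The fit with the replicate block called 31, 47 and 2 genes in these classes.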
